A study of Homo sapiens with 8 samples.

Results

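The clustered protocadherin genes occupy the interval chr5:140165000-140892000 of hg19, 727 kb on the long arm of chromosome 5. Its peaks were taken from 4 deposited lists: methylated DNA immunoprecipitation and sequencing (MeDIP-seq), and chromatin immunoprecipitation and sequencing (ChIP-seq) of ORCA at early, mid and late G1. A peak was a member when it shared at least 1 bp with the interval. This gave 77 of the 98024 peaks in all lists, of which 74 were MeDIP peaks, 1 was an early, 2 were mid and 0 were late G1 ORCA peaks. The alpha cluster was taken as chr5:140165000-140392000, the beta cluster as chr5:140430000-140630000 and the gamma cluster as chr5:140710000-140892000. All samples were U2OS cells, an established human osteosarcoma line, with no genetic change or drug named in their labels. The ORCA samples were synchronized cells, and the MeDIP sample carried no stage. Each group was 1 sample, so that no spread between replicates was available and no test was run. The labels pair each of the 4 immunoprecipitated samples with an input, which was not analysed here.

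Protocadherins are cadherin-like adhesion proteins of the cell surface, best known in neurons, where each cell uses its own combination of them for self-recognition. In the alpha and gamma clusters a row of large variable first exons, each with its own promoter, is followed by a few constant exons to which any of them can be spliced. The beta genes have no constant exons. Most of these promoters carry a short conserved element with the core CGCT, which the insulator protein CTCF binds, and methylation of the promoter goes with silence of the gene. High methylation across these clusters is known from several cancers. ORCA (gene name LRWD1) binds the origin recognition complex, the assembly that marks sites where DNA replication can start. MeDIP pulls down fragments with an antibody to methylated cytosine, so that a peak needs both CpG sites and their methylation.

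The sequence of the peaks was not used here, because the reference tables are of another build than hg19. To show the kind of sequence these clusters present, the 250 bases before the annotated start of the first and the last listed gene of each cluster are given from RefSeq, build GRCh38.p14. They read 5′ to 3′ on the plus strand, the strand of all listed promoters of these genes, with each CGCT in capitals. A CGCT is only the core of the conserved element. Whether a marked CGCT belongs to that element or is bound by CTCF was not tested. Their positions in GRCh38.p14 are chr5:140785890-140786139 for PCDHA1, chr5:140966226-140966475 for PCDHAC2, chr5:141051124-141051373 for PCDHB1, chr5:141245145-141245394 for PCDHB15, chr5:141330264-141330513 for PCDHGA1 and chr5:141484780-141485029 for PCDHGC4. These positions cannot be set beside the hg19 positions of the peaks.
PCDHA1: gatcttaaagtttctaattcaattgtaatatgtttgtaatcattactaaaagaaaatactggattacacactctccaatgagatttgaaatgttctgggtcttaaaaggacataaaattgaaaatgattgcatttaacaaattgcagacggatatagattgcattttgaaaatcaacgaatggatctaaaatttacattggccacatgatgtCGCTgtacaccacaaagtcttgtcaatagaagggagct
PCDHAC2: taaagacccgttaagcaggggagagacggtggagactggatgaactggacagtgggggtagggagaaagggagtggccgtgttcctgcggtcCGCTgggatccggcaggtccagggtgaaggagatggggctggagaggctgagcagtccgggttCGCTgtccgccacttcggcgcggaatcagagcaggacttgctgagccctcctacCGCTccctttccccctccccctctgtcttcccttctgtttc
PCDHB1: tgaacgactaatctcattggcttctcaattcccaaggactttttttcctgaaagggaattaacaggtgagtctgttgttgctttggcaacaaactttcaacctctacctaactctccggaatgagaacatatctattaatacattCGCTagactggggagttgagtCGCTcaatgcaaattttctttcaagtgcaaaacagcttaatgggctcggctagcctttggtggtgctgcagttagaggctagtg
PCDHB15: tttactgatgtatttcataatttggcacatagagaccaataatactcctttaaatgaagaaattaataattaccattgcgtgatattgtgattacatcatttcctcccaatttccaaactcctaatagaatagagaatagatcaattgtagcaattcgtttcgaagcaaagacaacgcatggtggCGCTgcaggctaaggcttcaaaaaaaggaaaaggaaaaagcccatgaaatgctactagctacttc
PCDHGA1: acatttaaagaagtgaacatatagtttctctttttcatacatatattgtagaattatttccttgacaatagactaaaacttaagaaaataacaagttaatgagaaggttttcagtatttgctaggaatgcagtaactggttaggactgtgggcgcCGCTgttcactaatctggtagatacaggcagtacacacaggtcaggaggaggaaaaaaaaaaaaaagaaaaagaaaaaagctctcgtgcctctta
PCDHGC4: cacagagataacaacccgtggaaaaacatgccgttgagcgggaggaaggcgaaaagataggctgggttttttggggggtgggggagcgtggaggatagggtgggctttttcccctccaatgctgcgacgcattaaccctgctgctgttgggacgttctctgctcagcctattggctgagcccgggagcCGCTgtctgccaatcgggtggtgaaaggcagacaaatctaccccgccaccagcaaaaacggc

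The 6 stretches differ in CpG content. PCDHA1 and PCDHGA1, the first variable genes of their clusters, have 3 CpG each, and PCDHB1 and PCDHB15 have 5 each. PCDHAC2 and PCDHGC4, which belong to the C-type genes at the far end of their clusters, have 13 each. A CGCT lies 38 bases before the start of PCDHA1, 65 bases before that of PCDHB15, 95 bases before that of PCDHGA1 and 62 bases before that of PCDHGC4. PCDHB1 has 2 matches and PCDHAC2 has 3.

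RefSeq lists 53 protein-coding protocadherin genes in the 3 clusters, and 47 of them matched the promoter table, with 52 promoters. PCDHA3, PCDHA13, PCDHB6, PCDHB11, PCDHGA12 and PCDHGC5 had no entry. On the sense strand of the gene, CGCT was found in the 250 bases of 12 of 13 alpha, 13 of 14 beta and 25 of 25 gamma promoters, against 48.1% of all 35116 promoters of the table. On either strand, where AGCG is the other reading, the counts were the same in the 3 clusters and 64.8% over all promoters. PCDHA9 and PCDHB8 had no match in this window. In the 100 bases nearest the start, CGCT on the sense strand was found in 12 of 13 alpha, 13 of 14 beta and 19 of 25 gamma promoters. Over all promoters this share was 28.1%. Near the start gamma thus had the lowest share of the 3 clusters, 76.0%. The 25 gamma promoters came from 20 genes. PCDHGB1, PCDHGB4, PCDHGB5, PCDHGB6 and PCDHGC4 had 2 listed starts each, so they count 2 times in the gamma share and medians. In this order, their starts had 6 and 10, 11 and 13, 11 and 15, 14 and 18, and 13 and 22 CpG. Differences between the clusters were not tested with 1 start per gene. The promoters held a median of 5 CpG in alpha, 6 in beta and 7 in gamma, below the median of 11 over all promoters. The median GC content was 34.8%, 39.6% and 44.4%, against 58.0% over all promoters. The C-type promoters and several of the PCDHGB promoters stood apart from this. PCDHAC1 had 18 CpG and PCDHGC3 had 15, and one of the 2 listed starts of PCDHGC4 had 22. Right before the start, most of these promoters thus held fewer CpG than the typical promoter of the table.

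**Figure D1:**
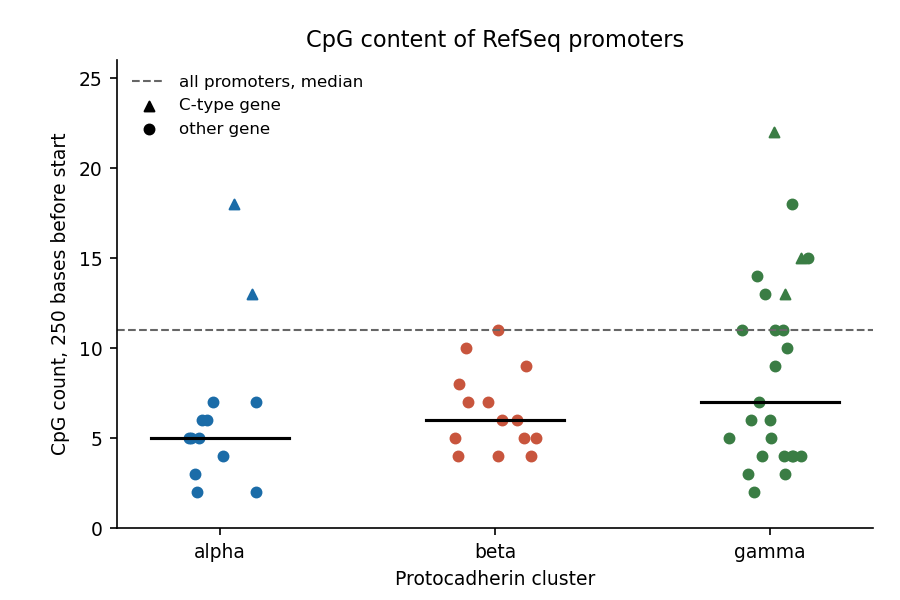
CpG dinucleotides in the 250 bases before each listed start (vertical axis, count) of alpha, beta and gamma protocadherin genes. The 25 gamma points come from 20 genes. Each point is a promoter, triangles are C-type genes, black bars are the medians of 5, 6 and 7, and the dashed line is the median of 11 over all promoters, which most points lie below.

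MeDIP peaks were dense in the 3 clusters and few in the short spaces between them. The alpha cluster held 20 MeDIP peaks, the beta cluster 19 and the gamma cluster 34. The remaining member, chr5:140682946-140683843 with a score of 1086.77, lay in the 80.0 kb between beta and gamma. The 38.0 kb between alpha and beta held none. Density was 8.81 peaks per 100 kb in alpha (exact 95% Poisson interval 5.38 to 13.6), 9.50 in beta (5.72 to 14.8) and 18.7 in gamma (12.9 to 26.1). The rest of chromosome 5 had 1.78 per 100 kb (1.72 to 1.85), over a span without stretches of more than 1 Mb that hold no peak in any list. Relative to it, peaks were 4.95 times as dense in alpha, 5.34 times in beta and 10.5 times in gamma. The space between beta and gamma had 1.25 per 100 kb (0.0316 to 6.96), and that between alpha and beta 0 (0 to 9.71). Both intervals reach above the rest of chromosome 5, so that a lower density in the spaces was not shown. The intervals hold counting error alone, and peaks next to each other are not independent.

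The clusters stood out more by covered sequence than by number of peaks. MeDIP peaks covered 17.5% of the bases of alpha, 19.0% of beta and 30.4% of gamma, against 1.91% of the rest of chromosome 5. The whole interval made up 0.446% of the span of chromosome 5, held 2.49% of its 2966 MeDIP peaks and 4.14% of the bases these covered. In the 618 windows of 200 kb along chromosome 5 that held a peak of any list, the median was 1.00 MeDIP peak per 100 kb. The highest value was 28. Windows without a peak in any list were left out. With them the median would be no higher, and the percents of windows below each cluster no lower. Counted by midpoints, 93% of the windows were below alpha, 93.4% below beta and 98.7% below gamma. By covered bases, 97.7% of the windows were below alpha, 98.1% below beta and 98.9% below gamma. Chromosome 5 had other places as dense: outside the interval, 42 windows were above alpha, 40 above beta and 8 above gamma by number of peaks. Of the windows above alpha and above beta, 1 more lay in the interval itself.

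**Figure D2:**
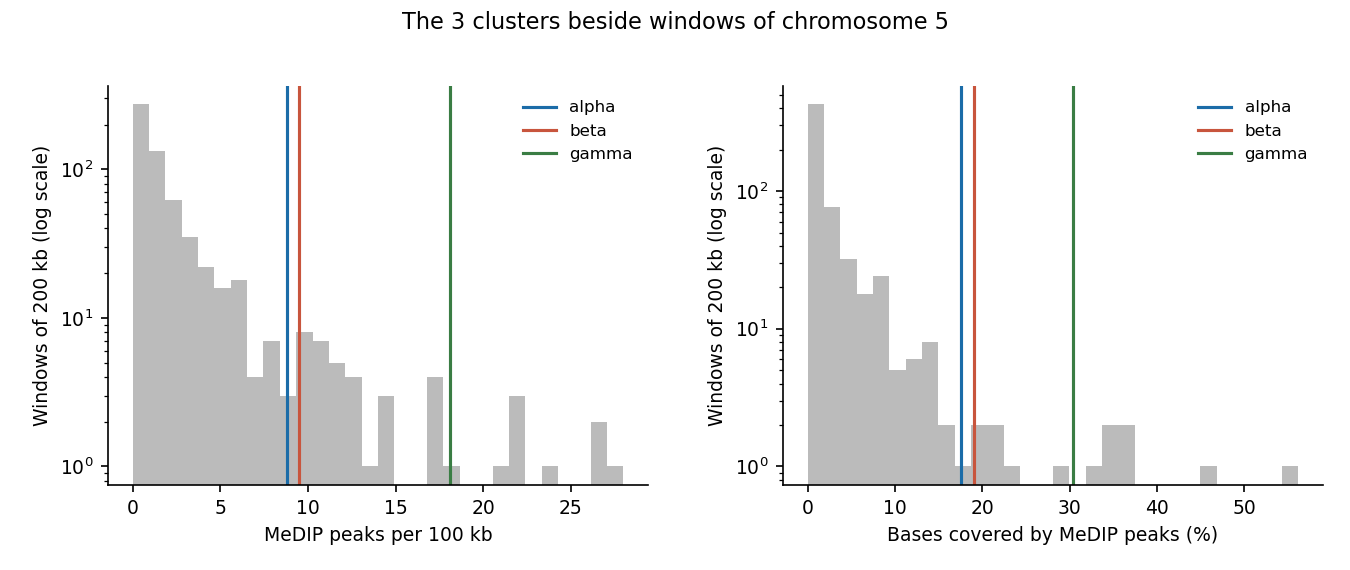
Windows of 200 kb along chromosome 5 that hold a peak of any list (grey bars, number of windows on a log scale). They are shown by MeDIP peaks per 100 kb on the left and by percent of bases covered on the right. Coloured lines mark alpha, beta and gamma: by number of peaks 43 windows, 1 of them in the interval, lie above alpha and 8 above gamma, and by covered bases 14, 1 of them in the interval, and 7.

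A long gap without MeDIP peaks lay on either side of the interval. The first member, chr5:140165731-140166504, started 0.731 kb inside the interval and had a score of 193.04. The last MeDIP peak before it, chr5:140075018-140075500 with a score of 114.87, ended 89.5 kb upstream. At the other end, chr5:140891725-140893168 with a score of 987.39 ran 1.17 kb past the interval. The next peak, chr5:141003032-141003553 with a score of 56.16, began 111 kb past the end of the interval. The 500 kb before the interval held 11 MeDIP peaks and the 500 kb after it 25. This is 2.20 and 5 per 100 kb, against 1.78 on the rest of chromosome 5. Inside the interval, the gap from the last alpha to the first beta peak was 83.2 kb.

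Scores in the clusters were far above those of the list. The score is the peak caller's own value, starting at 50 in this list, and it was compared within the MeDIP list only. Of the 74497 MeDIP peaks on chromosomes 1 to 22 and X, 5500 had a score of at least 3100 (7.38%), and 5259 of them had exactly 3100. Differences among these cannot be read. In the interval 39 of 74 peaks had this score and none was higher. That is 52.7% (exact binomial 95% interval 40.7 to 64.4), where 9.44% of the peaks of chromosome 5 reached it. The interval thus held 39 of the 280 such peaks of chromosome 5, or 13.9%.

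The beta cluster was the most uniform. Of its 19 peaks, 17 had a score of 3100 (89.5%, interval 66.9 to 98.7). The exceptions were chr5:140620427-140621929 with 1844.16 and chr5:140431146-140432249 with 154.91. The latter is the first beta peak and lies 44.4 kb from the next one. From chr5:140475009-140477100 to chr5:140614932-140616814, 16 neighbouring peaks had 3100 without a lower one among them. The first 5 of these by position, which the naming rule took, also include chr5:140479605-140482941, chr5:140502306-140504141, chr5:140515466-140517565 and chr5:140529664-140532454. Lower scores in beta were thus found at the first and at the second-last peak.

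The alpha cluster had 14 of 20 peaks at 3100 (70.0%, interval 45.7 to 88.1). The first of them were chr5:140166611-140168566, chr5:140174385-140177251, chr5:140180528-140183257, chr5:140187766-140189424 and chr5:140202277-140203960. The other 6 ranged from 66.04 to 2371.8. Of these, 4 were narrow peaks directly before a peak of 3100: 193.04 at chr5:140165731-140166504, 66.04 at chr5:140201294-140202077, 623.44 at chr5:140235361-140236556 and 326.13 at chr5:140254829-140255951. The gap to the peak after them was 2 to 199 bp. The other 2 stood alone at the far end of the cluster, chr5:140306421-140307896 with 791.03 and chr5:140346140-140347966 with 2371.8. RefSeq orders PCDHAC1 and PCDHAC2 last in this cluster, but whether these peaks lie on them was not tested, since the builds differ.

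The gamma cluster had the most peaks and the most mixed scores. Only 8 of 34 had 3100 (23.5%, interval 10.7 to 41.2), and the median was 1544.92, against 3100 in alpha and in beta. The 5 named by the rule were chr5:140724559-140726118, chr5:140729667-140732342, chr5:140740692-140741950, chr5:140768322-140769944 and chr5:140777446-140780104. Another 12 peaks lay between 1000 and 3100, 7 between 200 and 1000, and 7 below 200. The lowest was chr5:140881326-140881777 with 70.78 and the highest below 3100 was chr5:140753401-140756312 with 3037.95. Even so, the gamma median was above that of chromosome 5, which was 184.7, and 20.6% of gamma peaks were below 200, against 52.2% on chromosome 5. The intervals of the shares at 3100 in gamma and in the other 2 clusters did not overlap. They cover counting error only, and no test between clusters was run.

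**Figure D3:**
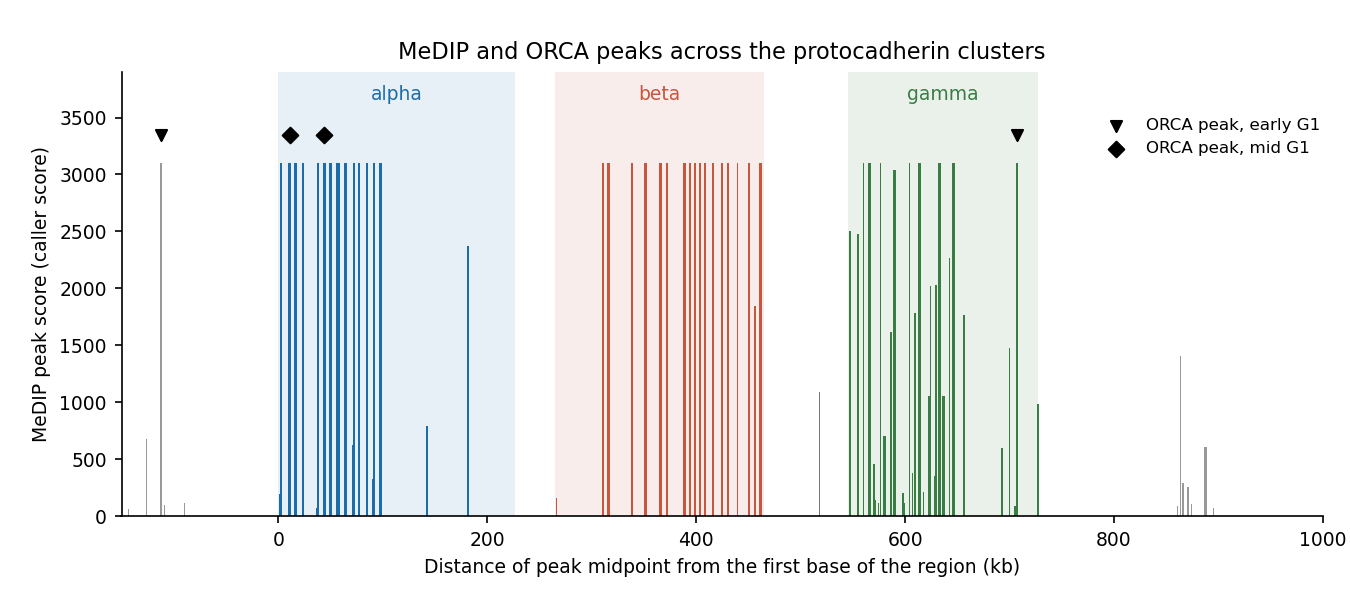
MeDIP peaks across the interval, with distance from its first base in kb on the horizontal axis and the caller's score on the vertical axis; bars are drawn at the width of the peak and coloured by cluster (grey outside), and triangles and diamonds mark early and mid G1 ORCA peaks. Alpha and beta form rows of bars at 3100, gamma mixes 8 such bars with lower ones, and the 3 ORCA peaks in the interval lie over bars of 3100.

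The peaks were also wide. The median width was 1756 bp in alpha (range 774 to 3452), 1856 bp in beta (1104 to 3337) and 1482 bp in gamma (452 to 2928), against 847 bp on chromosome 5. The widest were chr5:140261104-140264555 in alpha, chr5:140479605-140482941 in beta and chr5:140809848-140812775 in gamma, each with a score of 3100. Width goes with score in this list: over all chromosomes, peaks of at least 3100 had a median of 2110 bp and lower ones 797 bp. Among peaks of 3100, the widths were not larger than on the rest of the chromosome. The 39 peaks of 3100 in the interval had a median of 1959 bp, and those on the rest of chromosome 5 had 2145 bp. Among lower scores the median was 1327 bp in the interval against 796 bp on the rest of the chromosome, but these classes differ in score, with a median of 703 against 155. Between 1000 and 3100 the widths were 1532 bp over 15 peaks in the interval and 1401 bp over 287 on the rest of the chromosome. The median scores there were 1844 and 1689. Between 200 and 1000 the widths were 1184 bp over 10 peaks and 935 bp over 826, with median scores of 525 and 367. Below 200 they were 928.5 bp over 10 peaks and 682.5 bp over 1538, with median scores of 113 and 88.8. Below 3100, peaks of the interval were thus wider by median in each class, and their median scores were also higher. Beta peaks varied least, with the middle 50% of widths from 1810 to 2144 bp, against 1481 to 2764 bp in alpha and 1189 to 1932 bp in gamma.

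**Figure D4:**
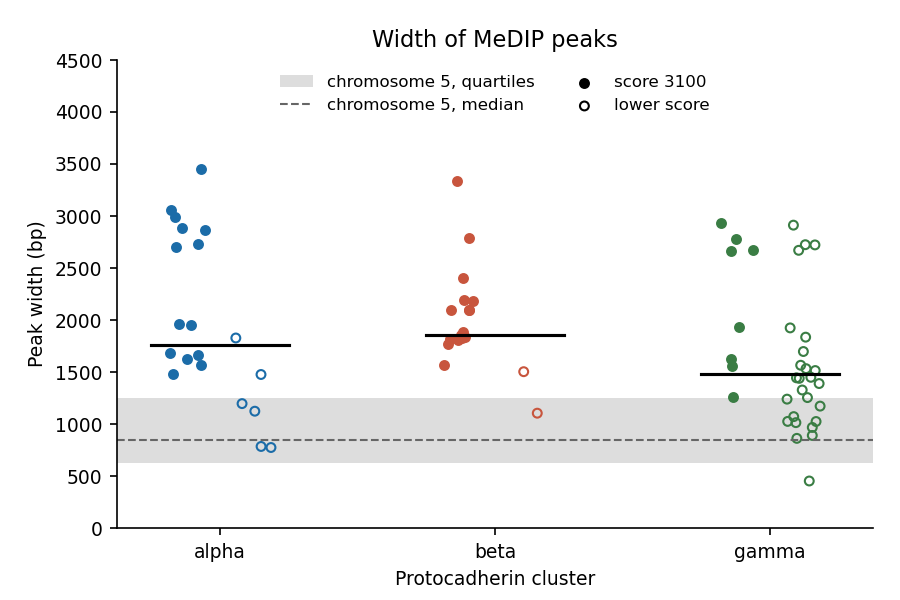
Width of each MeDIP peak in bp (vertical axis) in alpha, beta and gamma; filled points have a score of 3100, open points a lower one, black bars are medians, and the grey band and dashed line are the quartiles and the median of chromosome 5. The medians of 1756, 1856 and 1482 bp all lie above the 847 bp of chromosome 5.

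Neighbouring peaks were spaced at a few kb. Midpoints lay a median of 6.08 kb apart in alpha, 6.55 kb in beta and 3.87 kb in gamma, against 7.71 kb on chromosome 5. The 95% intervals of these medians were 4.99 to 7.86 kb, 5.3 to 13.3 kb and 3.38 to 5.08 kb. Those of alpha and beta include the median of chromosome 5, and only that of gamma lies below it. Over all chromosomes the median was 5.45 kb, shorter than in alpha and beta. With peaks less than 1 kb apart joined, the medians were 6.94, 6.55 and 5.92 kb, against 14.3 kb on chromosome 5, so that gamma was no longer set apart from the other clusters. The long distances differed as well. Without joining, the upper quartile on chromosome 5 was 34.7 kb, against 7.54 kb in alpha, 12.7 kb in beta and 5.67 kb in gamma. Distances under 10 kb made up 16 of 19 in alpha, 12 of 18 in beta and 30 of 33 in gamma. This is 84.2%, 66.7% and 90.9%, beside 55.3% on chromosome 5 and 63.2% over all chromosomes.

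Each cluster had a core and a few outlying peaks. In alpha, 18 peaks lay within 98.8 kb from the first peak on, and 44.3 kb separated them from the next. In beta, 18 peaks lay within 152.6 kb, with distances of 4.66 to 21.95 kb. In gamma, 28 peaks lay within 110 kb, followed by the longest distance of the cluster, 36.0 kb, between chr5:140820736-140821974 and chr5:140856347-140858270. These cores were drawn after the values were seen. The closest neighbours were 1.38 kb apart by midpoint in alpha, at chr5:140254829-140255951 and chr5:140255954-140257577, and also 1.38 kb in gamma, at chr5:140739458-140740424 and chr5:140740692-140741950. In beta the closest, chr5:140558212-140560028 and chr5:140562870-140564693, were 4.66 kb apart.

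**Figure D5:**
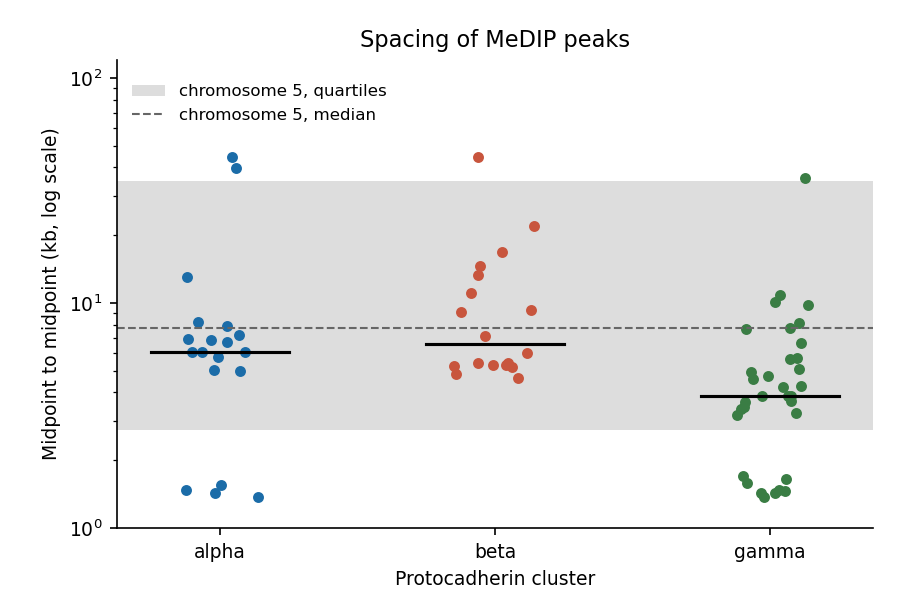
Distance between the midpoints of neighbouring MeDIP peaks in kb (vertical axis, log scale) in alpha, beta and gamma; each point is a pair of neighbours, black bars are medians, and the grey band and dashed line are the quartiles and the median of chromosome 5. Alpha and gamma have a group of points below 2 kb that beta lacks, and the longest distance of each cluster is above 30 kb.

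Some neighbouring peaks almost touched each other, about as often in the interval as on the chromosome. Gaps under 1 kb from the end of a peak to the start of the next made up 14 of 73 in the interval (19.2%) and 639 of 2965 on chromosome 5 (21.6%). By cluster they were 4 of 19 in alpha, 0 of 18 in beta and 10 of 33 in gamma. Joining such peaks left 16 methylated stretches in alpha, 19 in beta and 24 in gamma. RefSeq lists 15 protein-coding genes and 1 pseudogene in alpha, 16 and 3 in beta, and 22 and 2 in gamma, which makes 16, 19 and 24. For alpha and beta the number of stretches was the same with joining distances of 500 bp and 2 kb. For gamma it was 26 and 21, so that the equality there holds at 1 kb and not at these other distances. The comparison with numbers of genes was made after the values were seen, and the numbers are equal only with pseudogenes counted. Equal counts do not place 1 stretch on each gene, and this was not tested because the builds differ. After joining at 1 kb, 14 of the 16 alpha, 17 of the 19 beta and 8 of the 24 gamma stretches held a score of 3100, and stretches had a median width of 2740, 1856 and 2606 bp.

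ORCA peaks were few in the interval. The early G1 list had 1, chr5:140871706-140872142 in gamma, 437 bp wide with a score of 59.16. The mid G1 list had 2, both in alpha: chr5:140176500-140176969, 470 bp wide with 66.66, and chr5:140208887-140209278, 392 bp wide with 60.21. The late G1 list had none, and no list had an ORCA peak in beta or in the spaces between the clusters. None of the 3 overlapped an ORCA peak of another stage. All 3 scores were below the median of their list, which was 63.98 in early and 69.95 in mid G1.

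By number, this was close to the density of the chromosome. Chromosome 5 had 2.46 early, 2.73 mid and 0.282 late ORCA peaks per Mb, and at these densities the interval would hold 1.79, 1.99 and 0.205. The exact Poisson interval for the 1 early peak was 0.0348 to 7.66 per Mb, and for the 2 mid peaks 0.333 to 9.94 per Mb. For the late list the same exact interval reached from 0 to 5.07 per Mb, and the limit of 3 counts that a count of 0 allows is 4.13 per Mb, both above the density of chromosome 5, so that a lower late density was not detectable. The nearest ORCA peaks outside were chr5:140052097-140052566, 112 kb before the interval, and chr5:141908862-141909292, 1017 kb after it, in early G1. In mid G1 they were chr5:138586158-138586592 and chr5:142782928-142783409, 1578 kb before and 1891 kb after. In late G1 they were chr5:115265691-115266547 and chr5:175457104-175458423, 24898.5 kb before and 34565 kb after, on a list of 46 peaks for the chromosome.

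All 3 ORCA peaks lay wholly inside a MeDIP peak with a score of 3100. These were chr5:140870809-140872743, 1935 bp wide, for the early peak, and chr5:140174385-140177251 and chr5:140207446-140210333, 2867 and 2888 bp wide, for the mid peaks. On chromosome 5, 28.9% of early, 42.8% of mid and 47.8% of late ORCA peaks overlapped a MeDIP peak. With 3 peaks this cannot be set apart from the chromosome, the more so since MeDIP peaks cover 18.4% of the interval.

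Seen from the MeDIP side, an ORCA peak of any stage was found at 3 of 74 peaks (4.05%, exact binomial interval 0.844 to 11.4), beside 7.69% of the peaks of chromosome 5. By stage it was 1 of 74 in early, 2 of 74 in mid and 0 of 74 in late G1, beside 3.57%, 5.97% and 0.708% on chromosome 5. These shares are near those of the chromosome. Peaks of 3100 differed more. In the interval 3 of 39 overlapped an ORCA peak of any stage (7.69%, interval 1.62 to 20.9), where 27.5% of such peaks on chromosome 5 did. On the rest of chromosome 5 it was 74 of 241 (30.7%, interval 24.9 to 36.9). By stage, 1 of 39 overlapped an early, 2 of 39 a mid and 0 of 39 a late peak, beside 11.8%, 24.6% and 4.29% on chromosome 5.

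This comparison was chosen after the values were seen. Leaving out 10 Mb at either end of the chromosome left 35 of 125 such peaks with an ORCA peak (28%, interval 20.3 to 36.7). This range and that of the 39 protocadherin peaks overlap slightly, and both hold counting error alone. By cluster, 2 of 14 peaks of 3100 overlapped an ORCA peak in alpha (interval 1.78 to 42.8%), 0 of 17 in beta (0 to 19.5%). In gamma it was 1 of 8 (0.316 to 52.7%). No ORCA peak lay within 1 kb of any of the 19 beta MeDIP peaks. On the rest of chromosome 5 this held an ORCA peak for 79 of 241 peaks of at least 3100 (32.8%) and 233 of 2651 lower ones (8.79%).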

How the data were processed

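U2OS cells were profiled by ORCA ChIP-seq at early, mid and late G1 and by MeDIP-seq, with 1 sample per group. Reads were handled with Trimmomatic and Bowtie 0.12.7 on GRCh37 (hg19), per the submitters' processing notes, which give no settings. The authors deposited 1 peak list per sample, with a score from the peak caller for each peak. Read depth, the control and the caller's version and settings are not given in the sources used here. By its name, the late list came from a caller run with another number than the other ORCA lists, and the name of the MeDIP list holds a tag, gl3, that the labels do not explain.

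Chromosomes 1 to 22 and X entered all comparisons, starts are printed from 1, and no filter was applied. Scores were compared within a list. Merged peaks were at most 1 kb apart, edge to edge. Named peaks were all ORCA peaks and their nearest neighbours outside, the 5 highest MeDIP scores per cluster by position, the widest, the closest and most distant neighbours, and the peaks at the edges of the interval. The members and lists were chosen with earlier results of these data known. Peaks were not assigned to genes, because their build differs from that of the annotation table; other protocadherin and neighbouring genes were therefore not examined. Alternatives were midpoints, higher scores, merging, other windows, bounds and overlaps. Counting code was tested on simulated data. Python 3.11.15, numpy 2.4.6, pandas 2.3.3, scipy 1.17.1 and matplotlib 3.10.9 were used.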

Additional observations from a re-analysis of the deposited data

How the results depend on the processing

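Of 77 alternative values for 26 results, 63 stayed within the interval of the reported value (for numbers of ORCA peaks, within 1.5 times) and 14 did not. Some of these could hardly move. Counting by midpoints left the number of MeDIP peaks in alpha and beta unchanged. The intervals of the ORCA overlaps are wide, such as 1.23 to 31.7% in alpha, so that staying within them says little. Density of MeDIP peaks relative to the rest of chromosome 5 lay between 3.39 and 17.8 times over all 3 clusters and settings. With only peaks at or above the list's median score it was 9.70 times in alpha, 10.4 in beta and 17.8 in gamma. The percent of windows below alpha was 90.1 with 100 kb windows, 95.7 with 500 kb windows and 97.7 by bases covered; below beta it was 96.6 with 500 kb windows and 98.1 by bases covered. Median spacing from end to next start was 3.53 kb in alpha, 4.43 kb in beta and 2.31 kb in gamma, shorter by construction, and it was 5.92 kb in gamma with peaks merged within 1 kb. With ORCA peaks at or above their list's median score, the interval held 0 early and 0 mid peaks. Merging at 500 bp and 2 kb, spacing without the 2 longest distances and the width classes by score were chosen after seeing the data. The same holds for the counts limited to peaks of 3100 and for the comparison of joined stretches with numbers of genes. No paired analysis was possible because each group is 1 sample and no test was run, and no replicate could be left out. Read depth was not given, so that a site without a peak cannot be told from a site with too few reads.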

Other observations

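Both patterns here were looked for after the values were seen. Runs of neighbouring MeDIP peaks that all had a score of at least 3100 numbered 4615 over chromosomes 1 to 22 and X, and 3964 of them were single peaks. The beta run of 16 peaks, over 142 kb from 140475009 to 140616814, was the second longest. The longest had 19 peaks on chromosome 1 from 228743928 to 228784390, over 40.5 kb, and the next after beta had 10 peaks on chromosome X from 114961938 to 115005929, over 44 kb. On chromosome 5 outside the protocadherin interval no run was longer than 5 peaks. Alpha held runs of 5, 4, 3 and 2 peaks, and the longest run in gamma had 2. The length of a run depends on how the caller divides a stretch into peaks.

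Close pairs of peaks in alpha and gamma were uneven in score. Of the 4 alpha pairs with a gap under 1 kb, the peak nearer the start of the chromosome had the lower score in 4, and in each of them the other peak had 3100. In gamma the first peak was the lower one in 7 of 10 pairs. The second peak had 3100 in 3 of the gamma pairs and the first peak in 1. On the rest of chromosome 5 the first peak was the lower one in 294 of 625 such pairs (47.0%), the second peak had at least 3100 in 62 (9.92%) and the first in 80 (12.8%). Among all peaks, the share at 3100 or more was 70.0% in alpha, 23.5% in gamma and 8.33% on the rest of chromosome 5. Whether the pairs differ from these shares was not tested. All listed promoters of these genes are on the plus strand. The widest of these gaps was 199 bp in alpha and 979 bp in gamma. Where the pairs lie relative to promoters and first exons was not tested.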
